A study of Homo sapiens with 10 samples.

Results

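Genes that restrain or tune YAP, the transcriptional co-activator at the end of the Hippo pathway, were followed in RNA from MCF10A cells, an established non-tumorigenic human breast epithelial line. The genes were AMOT, AMOTL1, AMOTL2, PTPN14, AJUBA, LIMD1, FAT1, FAT2, FAT4 and DCHS1, taken by symbol for their place in the pathway, 10 of the 60168 genes in the deposited data. Of these 10 genes, 8 had enough counts to be tested, among 15768 genes in all, and FAT2 and DCHS1 did not.

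In the Hippo pathway the kinases MST1/2 (STK4 and STK3) activate LATS1 and LATS2, which phosphorylate YAP so that it stays in the cytoplasm. YAP that escapes this reaches the nucleus and switches on genes with the TEAD factors. Angiomotins hold YAP at junctions and actin filaments and also activate LATS, the phosphatase PTPN14 binds YAP and helps to keep it out of the nucleus, and the LIM proteins AJUBA and LIMD1 bind LATS and hold it inactive, so that they act in favour of YAP. FAT cadherins and their partner DCHS1 are very large adhesion proteins of the cell surface that feed into the pathway. Several of these genes are themselves known targets of YAP, which makes them part of a feedback loop.

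MCF10A-YAP5SA cells (2 libraries) carried a lentiviral vector with YAP5SA, a YAP whose LATS-phosphorylated serines are replaced by alanine. MCF10A-TRAM2 cells (4 libraries) carried the open reading frame of TRAM2, a component of the translocon that passes new proteins into the endoplasmic reticulum. MCF10A-control cells (4 libraries) carried an empty vector. All cells were grown in DMEM/F12 with horse serum, EGF, insulin, hydrocortisone and antibiotics, selected with antibiotic after transduction and lysed before they were confluent, and poly(A) RNA was sequenced. YAP5SA was in a blasticidin-resistance backbone with hPGK and hEF1 promoters and TRAM2 in a puromycin-resistance backbone with a CMV promoter, and the sources used here do not give the backbone of the empty vector, so that backbone and insert cannot be told apart. Nor do they say whether the cells were pools or single clones. The submitters' design text counts replicates as biological but gives another number than the libraries analysed here, and p-values measure only the spread between these samples.

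The libraries held 8489854 to 16314438 estimated counts. Of the control libraries, A against C had a chi-square per degree of freedom of 0.994 over 2592 genes (p = 0.5815) and B against D one of 1.03 (p = 0.1303), against 1.14 to 1.19 for the other pairs. The chi-square test thus found no difference beyond the sampling noise within either pair over these genes, although for B against D it did over another set of 3704 genes (p = 0.02083). Each pair was counted as 1 sample, named control 1 and control 2. MCF10A-TRAM2 B stood apart from the other MCF10A-TRAM2 libraries (chi-square per degree of freedom 5.45 to 6.37, against 1.90 to 3.75 among the others). By the run numbers in the names of the deposited data, libraries A and B belong to a first run and C and D to a second, and MCF10A-YAP5SA was in the first run only. YAP1 stood at 337 and 342 CPM (counts scaled to library size, with TMM factors) in MCF10A-YAP5SA, against 181 to 196 CPM in MCF10A-TRAM2 and 187 CPM in both control samples. TRAM2 stood at 250 to 611 CPM in MCF10A-TRAM2 and at 242 and 247 CPM in MCF10A-YAP5SA, against 28.4 and 28.9 CPM in control. The summed level of 6 basal epithelial markers was 1461 and 1514 CPM in MCF10A-YAP5SA and 2321 to 2619 CPM in MCF10A-TRAM2, against 2511 and 2540 CPM in control. The sum of 8 fibroblast markers, with THY1 at 0 in every library, was 1.55 to 1.77 CPM in MCF10A-YAP5SA and 2.97 to 3.87 CPM in MCF10A-TRAM2, against 3.43 to 4.26 CPM in control. The sum of 6 endothelial markers, with VWF and CLDN5 at 0 everywhere, was 2.94 CPM in MCF10A-YAP5SA and 11.99 to 17.6 CPM in MCF10A-TRAM2, against 9.70 to 10.6 CPM in control. That of 5 leukocyte markers, with CD3E at 0 and most of it CD68, was 49.6 to 55.4 CPM in MCF10A-YAP5SA and 36.6 to 47.9 CPM in MCF10A-TRAM2, against 40.6 to 40.9 CPM in control. These marker sums moved with MCF10A-YAP5SA, although not every marker moved with its sum, and their part in the results was not tested. By the calls defined below, 4 of the 6 basal markers were lower in MCF10A-YAP5SA over control, KRT17 was higher and KRT14 was not called. KRT5 made most of the basal sum. In control, COL1A1 made most of the fibroblast sum and PECAM1 most of the endothelial sum. PECAM1 stood at 0.336 and 0.155 CPM in MCF10A-YAP5SA, against 7.69 and 7.70 CPM in control. TEK had enough counts to be tested only through MCF10A-YAP5SA, so its values are given as a description. It had 9 and 12 counts in MCF10A-YAP5SA, against 4 and 1 in control. Of the leukocyte markers, CD68 stood at 55.0 and 49.2 CPM in MCF10A-YAP5SA, against 38.3 CPM in both control samples, and was not called. CD14 went the other way, at 0.0841 and 0.232 CPM in MCF10A-YAP5SA, against 1.88 and 2.32 CPM in control. In bulk RNA, fewer cells of a type and less RNA per cell cannot be told apart.

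Promoters are shown for the genes that rose in MCF10A-YAP5SA and hold the letters GGAATG or CATTCC, the core to which TEAD factors are known to bind, and which are the same letters read on opposite strands. RefSeq promoters (250 bases before to 50 bases after a start, GRCh38.p14) matched 7 of the 10 genes, with 10 promoters in all. FAT4, LIMD1 and DCHS1 had no promoter among them and were not searched for the motif. The motif was in 3 of these 10 promoters, and in 14.03% of the 35116 RefSeq promoters. The promoters lie on the minus strand and are given from 5′ to 3′ up to 60 bases on either side of the motif, which is in capitals.
PTPN14, chr1:214551737-214551852, motif at -200 from the start: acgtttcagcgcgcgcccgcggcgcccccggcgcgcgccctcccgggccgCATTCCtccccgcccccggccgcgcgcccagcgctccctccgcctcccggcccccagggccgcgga
AMOTL2, downstream start, chr3:134374451-134374576, motif at -69: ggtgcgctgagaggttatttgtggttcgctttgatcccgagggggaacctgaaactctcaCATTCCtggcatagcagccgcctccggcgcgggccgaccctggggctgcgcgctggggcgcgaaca
AJUBA, downstream start, chr14:22976843-22976961, motif at -59: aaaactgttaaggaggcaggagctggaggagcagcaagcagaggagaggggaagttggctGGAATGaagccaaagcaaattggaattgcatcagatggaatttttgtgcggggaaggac
The AP-1 letters TGANTCA, searched on both strands, were in 7.71% of RefSeq promoters and in none of these 10. A match is a description of the letters and not a bound site.

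To ask how the genes stood in cells with active YAP, MCF10A-YAP5SA was compared with MCF10A-control. AMOTL2, AMOT, PTPN14, AJUBA, FAT1 and FAT4 rose, AMOTL1 and LIMD1 were within a log2 fold change of 0.5, and no gene fell. Calls needed a log2 fold change beyond 0.5 in either direction and an adjusted p below 0.05 in edgeR's quasi-likelihood test with Benjamini-Hochberg adjustment over all 15768 genes, the source of every adjusted p given here unless another tool is named. By this rule 6 of the 8 tested genes were higher and 0 were lower, beside 15.3% of all tested genes called higher and 14.1% called lower. DESeq2 also called 6 higher. At an unadjusted p under 0.05, 7 of the 8 passed, beside 8493 of all 15768 genes tested. The median log2 fold change was 1.46 over the 8 genes and -0.01 over all genes tested.

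**Figure D1:**
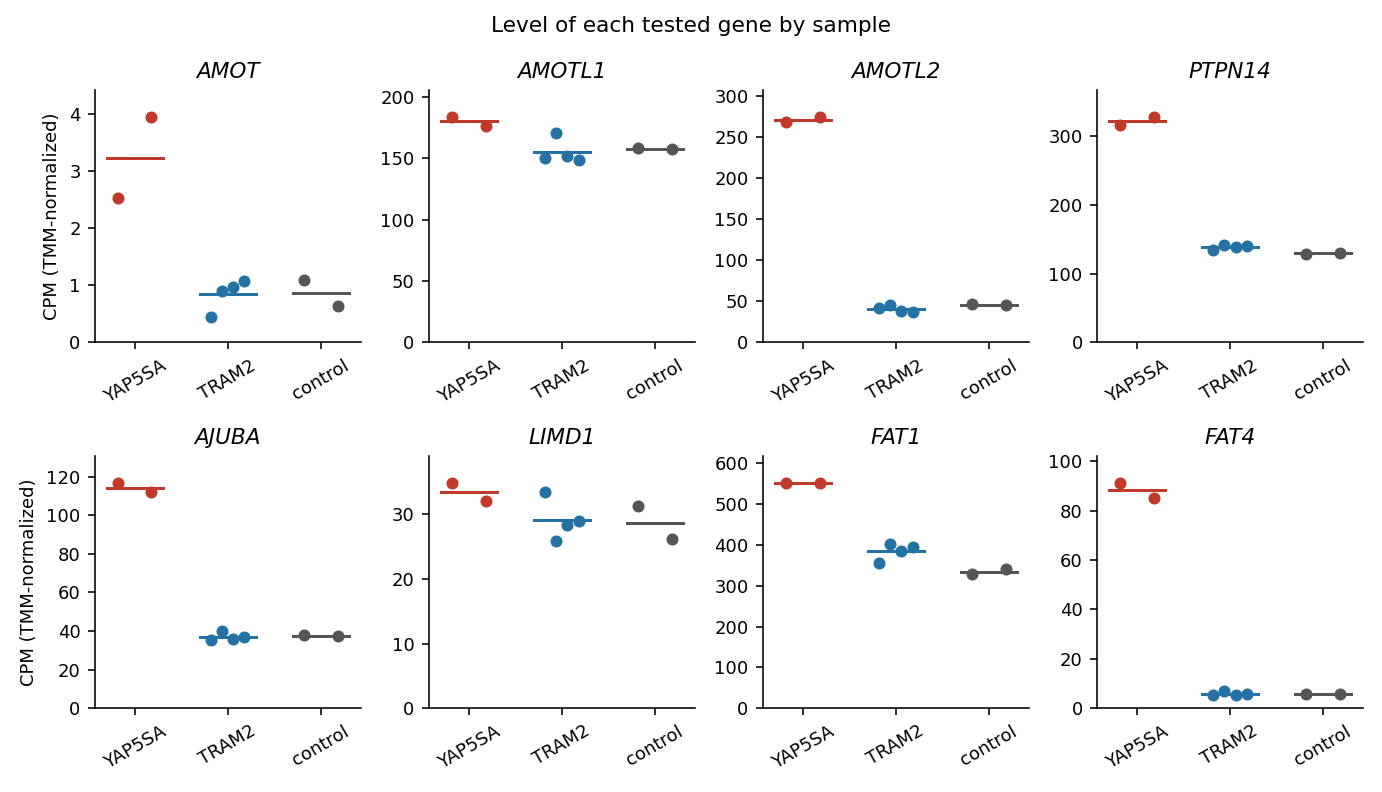
TMM-normalized CPM (vertical axes, from 0) of the 8 tested genes, with a point for each sample and a line at the group mean, for MCF10A-YAP5SA (left, n = 2), MCF10A-TRAM2 (middle, n = 4) and MCF10A-control (right, n = 2). FAT4 stood at 91.4 and 85.2 CPM in MCF10A-YAP5SA and at no more than 7.18 CPM elsewhere, while the LIMD1 samples of MCF10A-YAP5SA and MCF10A-TRAM2 overlapped.

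Among the angiomotins, AMOTL2 (ENSG00000114019.14, GRCh37 chr3:134074189-134094321, minus strand) had the highest fold change, although its interval overlapped with that of AMOT. It stood at 268 and 275 CPM in MCF10A-YAP5SA, at 42.4, 45.2, 37.8 and 37.6 CPM in MCF10A-TRAM2 A to D, and at 46.7 and 45.0 CPM in control. Both MCF10A-YAP5SA samples lay far above all others, while MCF10A-TRAM2 and control overlapped. This was 5.91-fold over control, or 2.56 in log2 units (standard error 0.0751, adjusted p = 3.22e-12). AMOTL2 binds YAP through motifs that the WW domains of YAP recognise and is widely used as a readout of YAP activity.

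Transcripts of AMOTL2 that start within 500 bases of the downstream RefSeq start, whose promoter is printed above, took 90.9% of the gene's counts in MCF10A-YAP5SA and 92.1% in control. Their level was 245 and 248.5 CPM in MCF10A-YAP5SA and 34.8 to 41.2 CPM in MCF10A-TRAM2, against 43.4 and 41.0 CPM in control. The upstream start held 0.479 and 0 CPM in MCF10A-YAP5SA and 0 in every other sample. Most of the difference between the groups thus lay in transcripts of the downstream start, as far as the estimates assign reads to transcripts.

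AMOT (ENSG00000126016.15, GRCh37 chrX:112017731-112084059, minus strand), the founding angiomotin, was a low-count gene. It had 81 counts in all MCF10A-YAP5SA libraries together and 52 in those of MCF10A-TRAM2, against 36 in control. By sample it stood at 2.52 and 3.95 CPM in MCF10A-YAP5SA, at 0.447, 0.897, 0.969 and 1.07 CPM in MCF10A-TRAM2 A to D, and at 1.10 and 0.647 CPM in control. The MCF10A-YAP5SA samples were the highest, and differed from each other by more than the whole spread of the others. AMOT rose over control by a log2 fold change of 1.87 (standard error 0.403, 95% interval 1.00 to 2.73, adjusted p = 0.00141). The ratio of the summed counts, scaled to library size, was 3.67, with a counting interval of 2.45 to 5.59 that covers counting error only. With an offset for transcript length the adjusted p was 0.0793 at a log2 fold change of 1.98, and the call was lost.

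AMOTL1 (ENSG00000166025.18, GRCh37 chr11:94439597-94609913, plus strand) stood at 184 and 176 CPM in MCF10A-YAP5SA, at 150.0, 170.1, 152 and 149 CPM in MCF10A-TRAM2 A to D, and at 158 and 157 CPM in control. The MCF10A-YAP5SA samples were above all others, by a small margin over MCF10A-TRAM2 B. Over control the log2 fold change was 0.19 (standard error 0.0636, 95% interval 0.05 to 0.33), and although the adjusted p was 0.0228 the gene was not called because its fold was under the threshold. In control cells AMOTL1 was the most abundant angiomotin per length.

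PTPN14 (ENSG00000152104.12, GRCh37 chr1:214522043-214725792, minus strand) stood at 315 and 327 CPM in MCF10A-YAP5SA, at 134, 141, 139 and 140 CPM in MCF10A-TRAM2 A to D, and at 129 and 130 CPM in control. The MCF10A-YAP5SA samples were more than 100 CPM above every other sample. PTPN14 was thus 2.48-fold higher than in control (log2 1.31, standard error 0.0499, adjusted p = 4.14e-11). Transcripts of the start whose promoter is printed above took 98.3% of the gene's counts in MCF10A-YAP5SA and 99.0% in control.

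The LIM proteins AJUBA and LIMD1 belong to the same family, and AJUBA was called higher while LIMD1 was not, a difference between genes that was not tested. AJUBA (ENSG00000129474.16, GRCh37 chr14:23440386-23451760, minus strand), which holds LATS at junctions, stood at 117 and 112 CPM in MCF10A-YAP5SA, at 35.5, 39.8, 36.0 and 36.9 CPM in MCF10A-TRAM2 A to D, and at 37.8 and 37.6 CPM in control. The MCF10A-YAP5SA samples lay above all others without overlap. The rise over control was 3.03-fold (log2 1.60, standard error 0.0661, adjusted p = 9.29e-11). AJUBA shares 50 exonic bases on its strand with another protein-coding gene, which had 149.5 counts in MCF10A-YAP5SA and 345 in MCF10A-TRAM2, against 222 in control.

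AJUBA transcripts stood higher in MCF10A-YAP5SA at each annotated start. At the upstream start its transcripts stood at 45.2 and 32.0 CPM in MCF10A-YAP5SA, against 11.8 and 12.2 CPM in control, a ratio of means of 3.21. At the downstream start, whose promoter holds the TEAD letters, they stood at 27.4 and 33.4 CPM in MCF10A-YAP5SA, against 11.1 CPM in both control samples, a ratio of 2.75. The remaining transcripts had a ratio of 3.11. Most of their counts belonged to AJUBA-202, whose start was not placed here and which took 36.6% of the gene's counts in MCF10A-YAP5SA and 35.2% in control. These ratios were not tested, and the MCF10A-YAP5SA samples exchanged their order between the starts.

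LIMD1 (ENSG00000144791.10, GRCh37 chr3:45596886-45727833, plus strand), which also binds LATS, stood at 34.9 and 32.1 CPM in MCF10A-YAP5SA, at 33.4, 25.9, 28.4 and 29.0 CPM in MCF10A-TRAM2 A to D, and at 31.2 and 26.2 CPM in control. MCF10A-YAP5SA overlapped with MCF10A-TRAM2 and lay just above control. The difference from control was 0.22 in log2 units (standard error 0.114, 95% interval -0.03 to 0.47, adjusted p = 0.138), so that a change of up to 0.47 in the log2 level was not separated from none at this depth. The opposite-strand LIMD1-AS1 shares 3150 exonic bases with it and had 3 counts in MCF10A-YAP5SA and 16 in MCF10A-TRAM2, against 12 in control.

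Of the cadherins, FAT4 (ENSG00000196159.11, GRCh37 chr4:126236073-126414087, plus strand), the receptor that pairs with DCHS1 on the neighbouring cell, had the highest fold among the 8 genes. It stood at 91.4 and 85.2 CPM in MCF10A-YAP5SA, at 5.36, 7.18, 5.33 and 5.62 CPM in MCF10A-TRAM2 A to D, and at 5.81 and 5.93 CPM in control. Both MCF10A-YAP5SA samples were more than 10 times any other sample. FAT4 was 15.03-fold higher than in control (log2 3.91, standard error 0.110, adjusted p = 1.98e-12). Its longest transcript, of 16123 bases, took 80.2% of its counts in MCF10A-YAP5SA and 74.7% in MCF10A-TRAM2, against 90.0% in control. The shorter FAT4-201 had 23.6 counts in control library A and 0 in B, C and D, and the shares were not tested.

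FAT1 (ENSG00000083857.14, GRCh37 chr4:187508948-187647876, minus strand), a cadherin mutated in several carcinomas, was already abundant in control and rose less. It stood at 553 and 552 CPM in MCF10A-YAP5SA, at 355, 402, 384 and 395 CPM in MCF10A-TRAM2 A to D, and at 329 and 339.9 CPM in control. The groups formed steps without overlap, with control lowest and MCF10A-YAP5SA highest. MCF10A-YAP5SA was 1.65-fold over control (log2 0.72, standard error 0.0583, adjusted p = 1.24e-07). Transcripts of its downstream start took 91.2% of the counts in MCF10A-YAP5SA and 85.2% in control, and stood at 501 and 506 CPM in MCF10A-YAP5SA, against 278 and 292 CPM in control. The transcript of the upstream start stood at 29.6 and 26.8 CPM in MCF10A-YAP5SA, against 16.5 and 17.2 CPM in control. FAT1-212, which is nearly as long as the transcript of the downstream start and whose own start was not placed here, took 0.516% of the counts in MCF10A-YAP5SA and 5.76% in control, most of the gap between the shares of the downstream start.

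**Figure D2:**
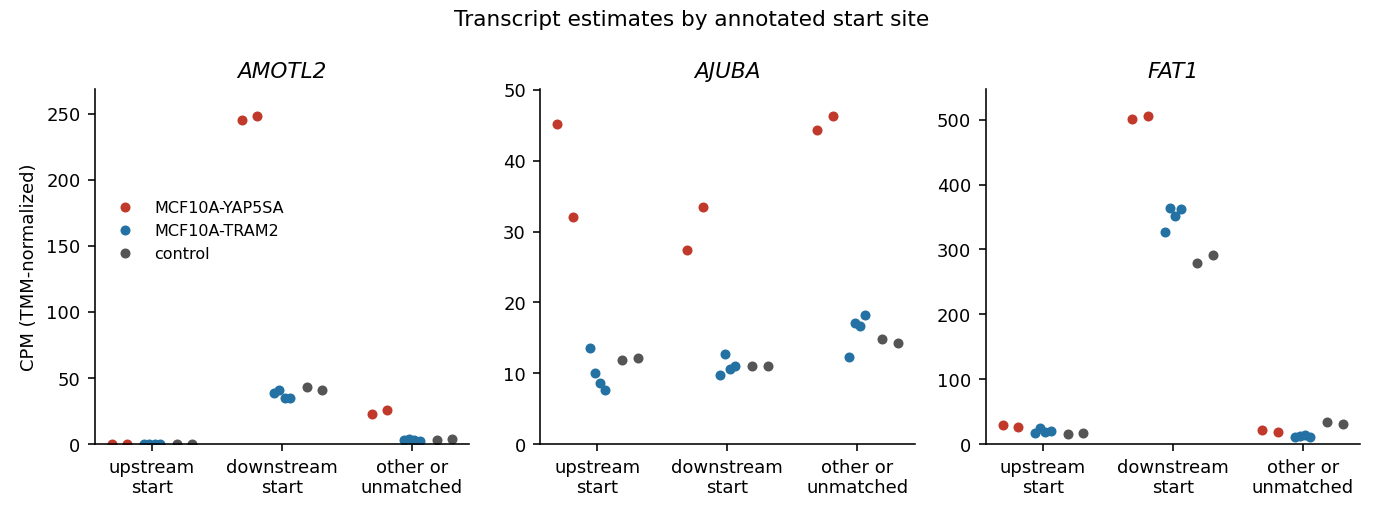
TMM-normalized CPM (vertical axes, from 0) of the transcripts of AMOTL2, AJUBA and FAT1, grouped by the annotated start they lie within 500 bases of or, at the right, as near neither start or not placed, with a point for each sample of MCF10A-YAP5SA, MCF10A-TRAM2 and MCF10A-control. AMOTL2 and FAT1 were mostly assigned to the downstream start, and AJUBA and FAT1 stood higher in MCF10A-YAP5SA than in control at both starts.

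FAT2 and DCHS1 were barely seen. FAT2 (ENSG00000086570.12, GRCh37 chr5:150883653-150970892, minus strand) had 0 counts in MCF10A-YAP5SA and 1 in MCF10A-TRAM2, against 1 in control, too few for any comparison. DCHS1 (ENSG00000166341.8, GRCh37 chr11:6642561-6677040, minus strand), the ligand of FAT4, had 8 counts in MCF10A-YAP5SA and 21 in MCF10A-TRAM2, against 16 in control. It stood at 0.336 and 0.310 CPM in MCF10A-YAP5SA, at 0.224 to 0.442 CPM in MCF10A-TRAM2, and at 0.412 and 0.377 CPM in control. The ratio of MCF10A-YAP5SA over control was 0.815 with a counting interval of 0.302 to 2.02, so that neither a rise nor a fall of DCHS1 was detectable at this depth.

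Levels were compared between genes per length, as TPM summed over protein-coding transcripts of at least 2000 bases, as a description with no test. In MCF10A-YAP5SA the order of median TPM was AMOTL2 at 33.4, AJUBA at 17.3, PTPN14 at 15.5, FAT1 at 15.2, AMOTL1 at 8.66, FAT4 at 2.76, LIMD1 at 2.66, AMOT at 0.311, DCHS1 at 0.0135 and FAT2 at 0. The libraries of PTPN14 and FAT1 overlapped there, as did those of FAT4 and LIMD1. In control the order was FAT1 at 9.27, AMOTL1 at 7.77, PTPN14 at 6.48, AMOTL2 at 6.14, AJUBA at 5.70, LIMD1 at 2.37, FAT4 at 0.172, AMOT at 0.048, DCHS1 at 0.0185 and FAT2 at 0. There AMOTL2 overlapped with PTPN14 above it and AJUBA below it, and DCHS1 with FAT2. MCF10A-TRAM2 began like control with FAT1 at 11.0 and AMOTL1 at 7.46, and there AMOTL1, PTPN14, AJUBA and AMOTL2, which followed in that order, overlapped from each to the next of the 4. AMOTL2 thus led the order in MCF10A-YAP5SA and stood below FAT1, AMOTL1 and PTPN14 in control, and FAT4 was level with LIMD1 in MCF10A-YAP5SA but far below it in control.

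MCF10A-TRAM2 was compared with control in the same fit. None of the 8 tested genes was called higher or lower, beside 0.0317% and 0.0254% of all tested genes called higher and lower, and DESeq2 called 0. At an unadjusted p under 0.05, 3 of the 8 passed, beside 1994 of all 15768 genes tested. The median log2 fold change was -0.01 over the 8 genes and -0.000767 over all genes. FAT1 had the largest difference, with all 4 MCF10A-TRAM2 libraries above both control samples, by 0.20 in log2 units (standard error 0.0507, adjusted p = 0.122). Within the first run the difference of FAT1 was 0.19 (adjusted p = 0.275) and within the second 0.22 (adjusted p = 0.00374), both under the fold threshold, and with an offset for transcript length it was -0.10 (adjusted p = 0.764). The adjusted p of FAT1 also lay under 0.05 with DESeq2 (0.0252), with the 10 libraries kept apart (0.00609), with the library letter as a replicate block (0.0075), with no filter on low counts (0.024) and without MCF10A-TRAM2 A (0.0253), at log2 fold changes of 0.18 to 0.24, and ranged from 0.00374 to 0.855 over all alternatives. The fits with the 10 libraries kept apart and with the replicate block take the 4 control libraries as 4 samples, where the main fit counts 2. Each run held 1 library of each control pair, so that the runs are not independent if each pair is 1 sample. The transcript FAT1-212 took 5.76% of the gene's counts in control and had 0.001 counts in every MCF10A-TRAM2 library. Within control it had 442, 257, 0.001 and 78.5 counts in libraries A to D, so that its estimate varied as widely within control as between the groups.

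AMOTL2 was at -0.17 on the log2 scale in MCF10A-TRAM2 over control (95% interval -0.32 to -0.03, adjusted p = 0.321). Within the second run it was -0.33 (adjusted p = 0.016) and within the first -0.02 (adjusted p = 0.943). PTPN14 had 0.10 (95% interval 0.003 to 0.19, adjusted p = 0.382). The other genes lay between -0.04 and 0.02, with 95% intervals of -0.14 to 0.10 for AMOTL1, -0.15 to 0.10 for AJUBA, -0.19 to 0.23 for LIMD1 and -0.28 to 0.27 for FAT4. AMOT, with few counts, had an interval of -0.88 to 0.80, which leaves a wide range of changes. The 95% interval of FAT1 was 0.09 to 0.31. For every tested gene except LIMD1, the log2 fold change in MCF10A-YAP5SA over control lay above the interval of the same gene in MCF10A-TRAM2 over control.

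**Figure D3:**
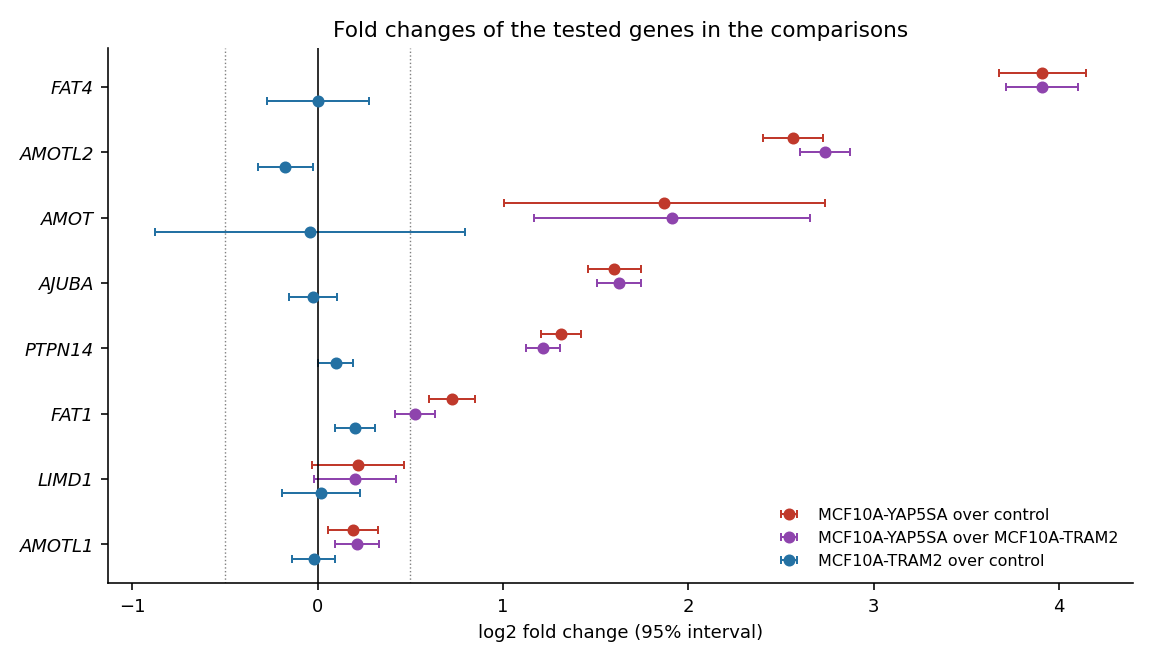
Log2 fold change (horizontal axis, points) with its 95% interval (bars) for the 8 tested genes, ordered by the change in MCF10A-YAP5SA over control, with dotted lines at the fold threshold of 0.5. Values of MCF10A-YAP5SA run from 3.91 for FAT4 to 0.19 for AMOTL1 over control, and FAT1 had 0.72 over control and 0.52 over MCF10A-TRAM2. Those of MCF10A-TRAM2 over control run from -0.17 for AMOTL2 to 0.20 for FAT1. None of these was called, although the intervals of FAT1, AMOTL2 and PTPN14 there leave out 0.

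MCF10A-YAP5SA was also set against MCF10A-TRAM2, which shares its samples with both comparisons above. Again 6 of the 8 tested genes were higher and 0 lower, beside 14.9% and 14.6% of all genes called higher and lower, and DESeq2 called 6. On the log2 scale FAT4 was higher by 3.91 (standard error 0.0905), AMOTL2 by 2.74 (0.0618), AMOT by 1.91 (0.347), AJUBA by 1.63 (0.0561) and PTPN14 by 1.22 (0.0417), with adjusted p from 1.47e-13 to 0.000321. FAT1 was just past the threshold at 0.52 (standard error 0.0496, adjusted p = 5.85e-07), and fell short of it at 0.49 without MCF10A-TRAM2 A and at 0.50 with no filter on low counts. AMOTL1 had 0.21 (adjusted p = 0.00497) and LIMD1 0.20 (adjusted p = 0.12), and neither was called.

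Within the first run alone, which held every MCF10A-YAP5SA library, the same comparison with control called 6 genes higher. The log2 fold change there was 3.91 for FAT4, 2.61 for AMOTL2, 1.64 for AMOT, 1.62 for AJUBA, 1.34 for PTPN14 and 0.73 for FAT1. It was 0.19 for AMOTL1 and 0.22 for LIMD1.

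The close relatives of these genes were read in the same fit. FAT3, a further FAT cadherin, had 65 counts in MCF10A-YAP5SA and 7 in MCF10A-TRAM2, against 4 in control. It stood at 2.69 and 2.56 CPM in MCF10A-YAP5SA, against 0.0458 and 0.162 CPM in control, a ratio of 26.5 with a counting interval of 9.86 to 100.1 that covers counting error only. As FAT3 passed the filter on low counts only through MCF10A-YAP5SA, its values are given as a description. WTIP, the remaining LIM protein of the AJUBA family, stood at 34.1 and 31.1 CPM in MCF10A-YAP5SA and at 6.25 to 6.84 CPM in MCF10A-TRAM2, against 7.28 and 7.49 CPM in control. WTIP rose by 2.14 in log2 units (standard error 0.106, adjusted p = 6.32e-10), so that AJUBA and WTIP were called and LIMD1 was not. DCHS2 had 0 counts in MCF10A-YAP5SA and 3 in MCF10A-TRAM2, against 3 in control, and was not tested. PTPN21, the relative of PTPN14, was not analysed here.

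Around them, core Hippo genes were called in both directions in MCF10A-YAP5SA over control. Of 23 core genes tested, 9 were higher, 4 were lower and 10 were not called, with a median log2 fold change of 0.39. Over all tested genes, 15.3% were called higher and 14.1% lower. The 9 include YAP1 at 0.86, which the YAP5SA vector itself carries, so that its call cannot be read as a change of the cell's own gene. TEAD1, a DNA-binding partner of YAP, had a log2 fold change of 1.92, the kinase LATS2 1.59, the scaffold NF2 1.14 and WWC2, a scaffold that activates LATS, 1.05. The WWTR1 gene, which encodes the YAP paralog TAZ, fell by 1.14 on the log2 scale. LATS1 was not called at 0.04.

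Of 12 partners and turnover factors of the angiomotins, 4 were higher, 1 was lower and 7 were not called. Beside this list and the 2 that follow, 15.3% of all tested genes were called higher and 14.1% lower. The polarity scaffold MPDZ, a relative of PATJ, had 3.95, PALS1 (listed as MPP5) had 1.78, and the ubiquitin ligases NEDD4L and NEDD4 had 1.18 and 1.02. The polarity scaffold PATJ fell by 0.65. Of 3 zyxin-type LIM proteins, LPP at 1.36 and ZYX at 0.59 were higher and TRIP6 had 0.29. Of 7 partners of FAT and DCHS proteins, 2 were higher, FJX1 at 0.90, whose fly ortholog is a kinase of Fat and Dachsous, and LIX1L at 1.09, and 5 were not called. In MCF10A-TRAM2 over control none of the genes of these lists was called, beside 0.0317% of all tested genes called higher and 0.0254% called lower. The pair of highest mean CPM over all 8 samples, those of MCF10A-YAP5SA included, was read in each list. It lay at 0.01 (MAP4K4) and 0.10 (FRMD6) among the core genes, and at 0.05 (NEDD4L) and 0.18 (USP9X) among the angiomotin partners. Among the zyxin-type proteins it lay at -0.17 (TRIP6) and 0.33 (LPP), and among the FAT and DCHS partners at 0.009 (ENAH) and -0.002 (VASP). WTIP had -0.15 (adjusted p = 0.608) in MCF10A-TRAM2 over control. As a check of YAP activity, the targets CCN1 and CCN2 had log2 fold changes of 5.40 and 4.74 in MCF10A-YAP5SA over control. ANKRD1 had 4919 and 5327 counts in MCF10A-YAP5SA and 3 to 7 in MCF10A-TRAM2, against 0 and 8 counts in the control samples.

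**Figure D4:**
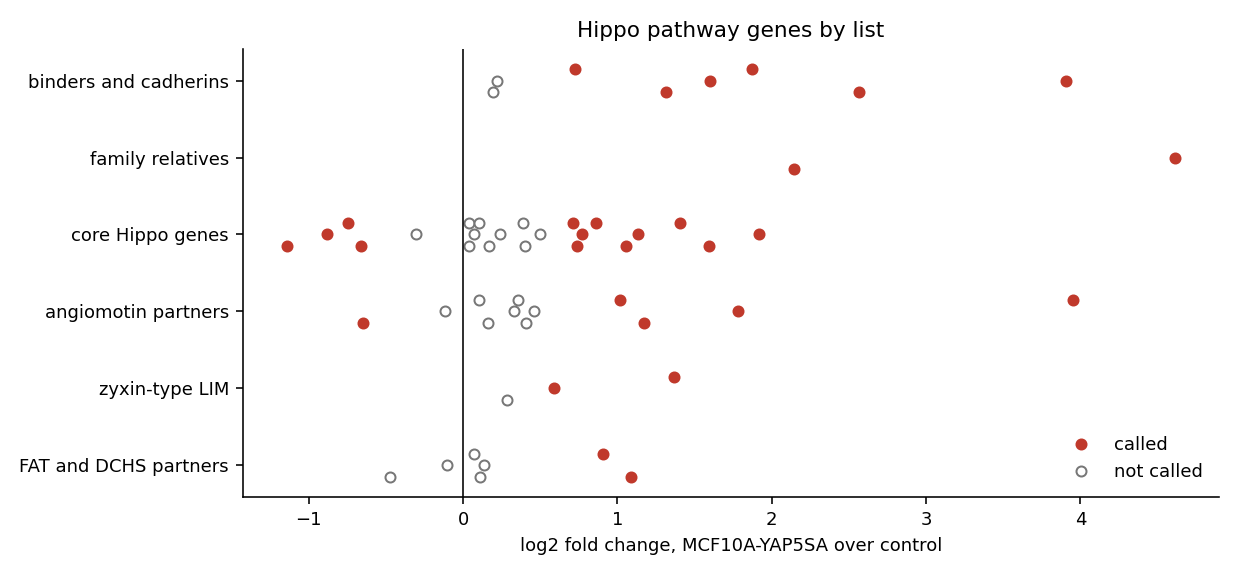
Log2 fold change in MCF10A-YAP5SA over control (horizontal axis) of each tested gene of the listed groups (rows), filled where called and open where not called, with FAT3 (4.61) at the far right passing the filter on low counts only through MCF10A-YAP5SA. Of the binders and cadherins 6 of 8 were called higher, whereas the 23 core Hippo genes held 9 called higher and 4 called lower. YAP1, which the YAP5SA vector carries, is among the 9. Over all tested genes, 15.3% were called higher and 14.1% lower.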

How the data were processed

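Poly(A) RNA of MCF10A cells was sequenced in 10 libraries. The authors removed adapters with cutadapt and quantified transcripts with Salmon, and deposited, per library and transcript, an estimated count, a TPM value and transcript lengths, none of them pooled. The sources used here do not give versions, genome build or use of strand, and the kit is TruSeq RNA in the labels but a stranded one in the paper.

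Estimated counts were summed over 60168 genes and rounded. Control A with C and B with D were summed after a chi-square test of their counts (p = 0.5815 and 0.1303, 2592 genes averaging 50 or more counts, whole to within 0.001 in every control library). Over the 3704 genes whole in B and D this chi-square test gave 0.02083. Over all genes averaging 50 or more counts it gave 5.158e-56 for A with C and 1.319e-51 for B with D. The resulting 8 samples were fitted in 1 model of 3 groups with edgeR 4.0.16 (R 4.3.3; filterByExpr, TMM, robust quasi-likelihood test, Benjamini-Hochberg adjustment over 15768 genes) and called beyond a log2 fold change of 0.5 in either direction at an adjusted p below 0.05. DESeq2 1.42.0 was an alternative, as were other samples, scalings, filters and a length offset. The steps were tested on simulated data. TPM values were used only for levels and transcripts. Coordinates of genes come from GENCODE v44lift37. All 10 genes and 4 relatives are named. Of each further list, up to 4 called genes of smallest adjusted p are named (in a list without calls, the 2 of highest mean CPM). As exceptions, LATS1, PATJ, TRIP6, WWTR1, YAP1 and the single cell type markers were named after their values were seen. The genes and lists were chosen with earlier results of these data known.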

Additional observations from a re-analysis of the deposited data

Results flagged for a closer look

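Among the 4 MCF10A-TRAM2 libraries, single values stood apart from the other 3 for 3 genes by Dixon's test, which flags about 1 in 20 groups by chance. AMOTL1 was highest in MCF10A-TRAM2 B at 170.1 CPM, with a gap of 0.861 of the range, and FAT4 was highest in the same library at 7.18 CPM, with a gap of 0.844. MCF10A-TRAM2 B is the library that differed most from its group over all genes. FAT2 had 0.0605 CPM in MCF10A-TRAM2 C, which is 1 count, and 0 in the other 3.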

How the results depend on the processing

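The counts of genes called lay at 5 or 6 higher and 0 lower for MCF10A-YAP5SA over control and over MCF10A-TRAM2, and at 0 for MCF10A-TRAM2 over control, under every alternative run. The call of AMOT over control was lost with the length offset (1.98), and that of FAT1 over MCF10A-TRAM2 with no filter (0.50) and without MCF10A-TRAM2 A (0.49). Signs turned only in MCF10A-TRAM2 over control, among values that were not called. With the length offset AMOTL1 had 0.11, FAT1 -0.10 and FAT4 0.15. In the first run alone AMOTL1 had 0.030, AJUBA 0.018 and FAT4 0.11. In the second run alone AMOT had 0.53 and LIMD1 -0.013. With no filter LIMD1 had -0.0052. FAT4 had 0.0096 with DESeq2, 0.0051 with the 10 libraries kept apart, 0.0090 with DESeq2 size factors in edgeR and 0.00074 with only the 2 groups compared. Leaving out each sample in turn gave -0.35 to 0.41 for AMOT, -0.070 to 0.0035 for AMOTL1, -0.10 to 0.16 for LIMD1 and -0.11 to 0.047 for FAT4. For MCF10A-YAP5SA over control, AMOT ranged from 1.52 to 2.32 in this way. The letters of the libraries did not pair them (correlations of deviations between -0.00026 and 0.031, with the own letter best for 2 of 4). With the letter as a replicate block, FAT4 had 0.011 in MCF10A-TRAM2 over control, AMOT 1.90 in MCF10A-YAP5SA over control, and the counts of called genes stayed at 6 in both comparisons of MCF10A-YAP5SA and at 0 in MCF10A-TRAM2 over control. AMOT, DCHS1 and FAT2 are limited by their counts, and the split of counts between near-identical transcripts was unsteady, with AMOTL1-202 at 1.63 to 4.91 TPM over the control libraries.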
